A study of Mus musculus with 9 samples.

Results

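The BNST, short for bed nucleus of the stria terminalis, and the nucleus accumbens (NAc), a pair of limbic regions of the mouse forebrain, were compared across all annotated genes of the Affymetrix Mouse430_2 array. The arrays were chosen by title, 3 labelled BNST and 3 labelled NAc, which made 6 of the 9 arrays of the study. The other 3 arrays held dorsal striatum (dStr). They entered the same linear model with its estimate of spread, the filter on low values and the choice of a probe set per gene. Their values are otherwise quoted for reference. All groups shared 1 tissue preparation, and the labels name no other treatment or genotype: brief isoflurane anaesthesia, coronal vibratome slices of 300 µm, punches from semi-frozen slices, and 10 ng of total RNA taken through a labelling method with a repeated amplification round. The sources used here do not give strain, sex, age or the number of animals per sample. The titles call the samples biological replicates but name no animals, so the p-values below measure only the spread between these samples.

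The BNST is a cluster of small nuclei of the extended amygdala that links the amygdala to the hypothalamus and brainstem and is known for stress, anxiety and social behaviour. Its neurons are mostly GABAergic and carry many different neuropeptides. The NAc is the ventral striatum, a target of midbrain dopamine neurons with a central place in reward, and most of its neurons are medium spiny projection neurons that express dopamine D1 or D2 receptors together with opioid peptides or substance P.

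Values are linear probe-set intensities, with low signals set to a common floor of 15. Intensities are given in the order array 1, 2, 3 of a region, with n = 3 per region throughout. Differences are BNST minus NAc on the scale of log2(value + 16), with the standard error (SE), a scale on which the fold of a dim gene is understated. A gene passed if its p-value from limma, adjusted over all 14208 genes tested, was under 0.05. Because whole punches were measured, fewer cells of a type and less RNA per cell cannot be told apart.

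The arrays of a region were not equally alike. Across genes, which are not independent replicates, r was 0.981 between BNST 2 and BNST 3. BNST 1 correlated at 0.934 and 0.948 with these arrays and at 0.899, 0.9535 and 0.966 with NAc 1, NAc 2 and NAc 3. NAc 2 and NAc 3 correlated at 0.964, and NAc 1 at 0.938 and 0.909 with them. With BNST 2 and BNST 3, NAc 1 correlated at 0.919 and 0.924. Thus BNST 1 and NAc 1 each correlated better with arrays of the other region than with an array of their own. Array medians lay between 93.9 and 102. The cytosolic ribosomal protein genes were dimmest on BNST 2 and NAc 1, with a mean of 10.46 on the log2 scale on both, against 10.97 to 11.33 on the other 4 arrays, and the part of this in the results was not tested.

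Between the BNST and the NAc, 318 of 14208 genes passed (2.24%), of which 108 were higher (0.76%) and 210 lower (1.48%) in the BNST. Among them, 221 had a difference of 1 or more on the log2 scale, 76 upwards and 145 downwards. The largest positive differences were those of Tmem212 and Ccdc153, both on the ependymal list, and of the transcription factors Otx2 and Zic1. The largest negative differences were those of the sodium channel subunit Scn4b, the retinoic acid receptor Rarb and the dopamine D1 receptor Drd1. The median difference of all genes was -0.049, and 40.6% of all genes lay above 0. In 2080 genes (14.6%) the arrays of the regions did not overlap, with the BNST above in 822 (5.79%) and the NAc above in 1258 (8.85%). All 318 genes that passed were among these.

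The count depended on which arrays were used. It was 617 without BNST 1, 145 without BNST 2 and 101 without BNST 3. For the NAc it was 292 without NAc 1, 112 without NAc 2 and 483 without NAc 3. It was 71 (43 higher, 28 lower) with the 6 arrays fitted alone, where the dStr arrays do not enter the estimate of spread. With every kept probe set that carried a single gene symbol tested by itself, 475 of 23823 probe sets passed (1.99%). Without BNST 1 and NAc 1 together 2203 genes passed, 1854 of them lower in the BNST, and all 318 were among them. These were the arrays that correlated least with the others of their regions, so leaving them out is no check on the calls. Quantile normalisation gave 200 higher and 235 lower genes, 46% higher against 34% as deposited. A total of 88 genes passed with every single array left out in turn, and so did 30 of the 40 genes named as the 20 largest differences in each direction.

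**Figure D1:**
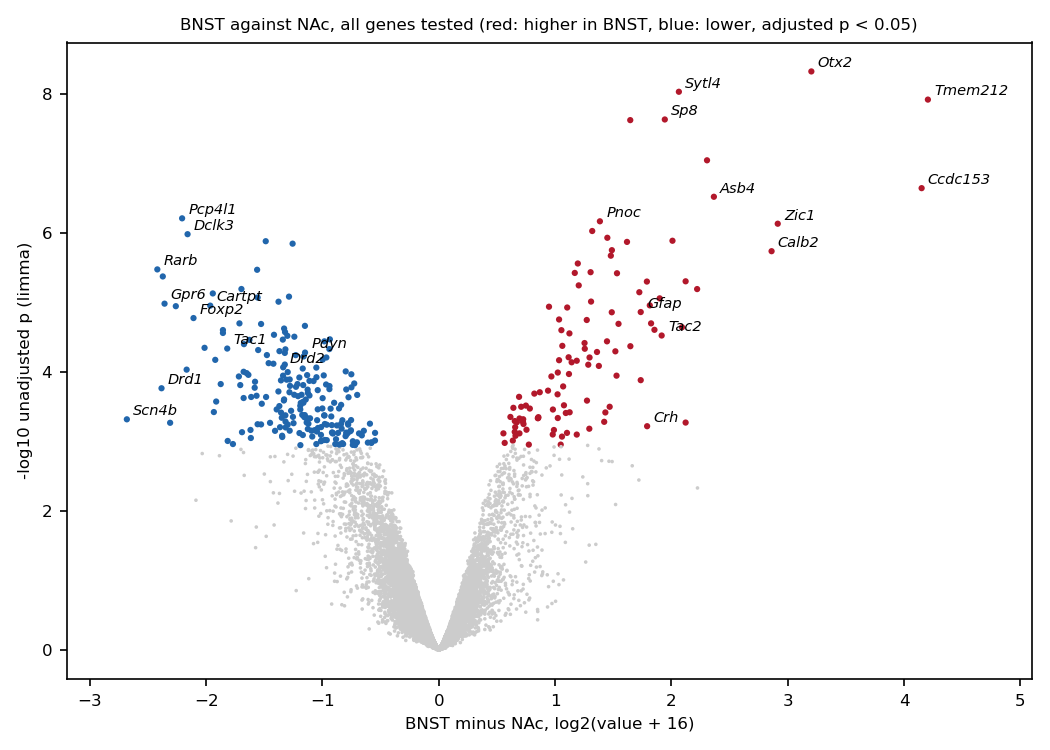
Difference between BNST and NAc for each of the 14208 genes on the log2(value + 16) scale (horizontal axis) against the -log10 of its unadjusted limma p-value (vertical axis). Red points passed and were higher in the BNST (108 genes), blue points passed and were lower (210 genes). Tmem212 and Ccdc153 lie farthest to the right and Scn4b farthest to the left.

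Genes that define striatal medium spiny neurons and their dopamine signalling were lower in the BNST. Of 34 tested members of this list, 18 passed and all 18 were lower, against 1.48% of all genes, and 0 were higher. This list and those below were chosen with earlier results of these data known. The shares that passed therefore describe the lists and do not test them. Lists also share genes, such as Drd1, Scn4b, Tac1 and Foxp2, so the same call can be counted on several lists. The median difference of the list was -1.32, against -0.049 for all genes, and 33 of 34 members lay below 0. The mean of the 34 genes on the log2 scale was 8.91, 7.91 and 8.39 on the BNST arrays and 9.74, 9.77 and 9.52 on the NAc arrays, with 10.4 to 10.5 in the dStr. BNST 1 was thus the closest of the 3 BNST arrays to the NAc and BNST 2 the farthest from it.

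Drd1, the dopamine D1 receptor of direct-pathway neurons, had intensities of 547, 121 and 275 in the BNST and 1870, 1620 and 1020 in the NAc. The groups did not overlap, although BNST 1 was far brighter than BNST 2. The difference was -2.38 ± 0.42 (SE; adjusted p = 0.017), and the call was lost without BNST 3 (adjusted p = 0.0772) and without NAc 2 (0.0837). Drd2, the D2 receptor of indirect-pathway neurons, read 120, 66.4 and 75.3 in the BNST and 250, 216 and 252 in the NAc (-1.34 ± 0.21, adjusted p = 0.011), and without BNST 3 its adjusted p was 0.066. In the dStr the same probe set read 697, 476 and 725, above both regions.

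Gpr6, an orphan receptor of indirect-pathway neurons, read 400, 144 and 232 in the BNST and 1500, 1450 and 990 in the NAc. The difference was -2.36 ± 0.30 (adjusted p = 0.0036), and the gene passed with each array left out. Scn4b, the beta-4 subunit of voltage-gated sodium channels, had the largest negative difference of the genes that passed, at -2.68 ± 0.53 (adjusted p = 0.031). Its values spread widely within each region, with 578, 89.7 and 202 in the BNST and 2620, 1410 and 949 in the NAc. The difference was -3.34 without BNST 1 and -2.09 without BNST 2, and the adjusted p rose to 0.0793 without BNST 2, 0.135 without BNST 3, 0.0606 without NAc 1 and 0.109 without NAc 2.

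Of the peptide precursors that mark the striatal output pathways, Tac1 passed and Penk did not. Tac1, which encodes substance P and marks the direct pathway, read 1390, 692 and 1560 against 4970, 3950 and 3470 (-1.82 ± 0.27, adjusted p = 0.0081). A second Tac1 probe set differed by only -0.18. Penk, the enkephalin precursor of the indirect pathway, read 2240, 1320 and 2770 against 5160, 4090 and 3670, with no overlap, a difference of -1.07 and an adjusted p of 0.059, so it did not pass. Ppp1r1b, which encodes the dopamine-regulated phosphoprotein DARPP-32, likewise did not pass, with a difference of -1.68 and an adjusted p of 0.057. BNST 1 at 451 nearly met NAc 1 at 470, whereas BNST 2 and BNST 3 read 149 and 229 and NAc 2 and NAc 3 read 1090 and 1130. Adora2a was not among the genes tested.

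Of the 18 calls on this list, 7 held with every array left out in turn. Without a single array, 0 calls were lost for BNST 1, 6 for BNST 2 and 11 for BNST 3. For the NAc, 5 were lost for NAc 1, 10 for NAc 2 and 1 for NAc 3. Without BNST 1 and NAc 1 together 0 were lost, which is no check on the calls. The list median ran from -1.55 without BNST 1 to -1.04 without BNST 2.

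**Figure D2:**
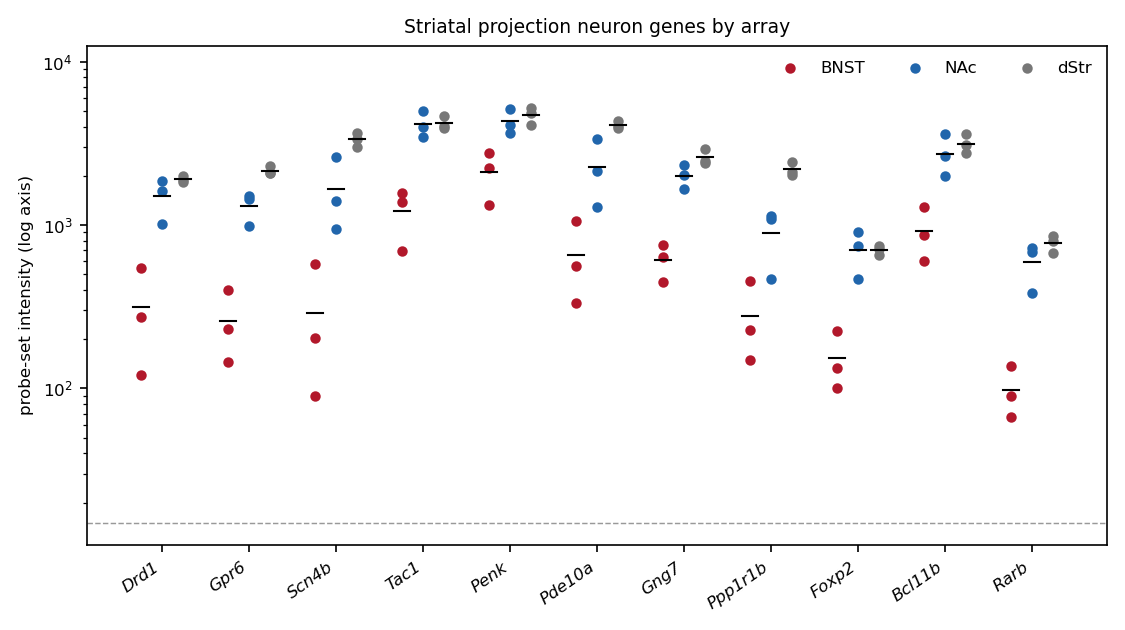
Probe-set intensity on a log axis for 11 striatal projection neuron genes, with 1 point per array, a black bar for the arithmetic mean of the 3 arrays, and a dashed line at the floor. BNST points lie below the NAc points for each gene, with the narrowest gap for Ppp1r1b (451 against 470), and BNST 1 is the highest BNST point for 9 of the 11 genes.

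Second-messenger genes that act downstream of these receptors were lower in the BNST where they passed. Of 45 tested genes for cyclic nucleotide and G-protein signalling, 11 passed and all were lower in the BNST, against 1.48% of all genes, with a list median of -0.36. Gng7, Pde10a, Rgs9, Gnal and Adcy5, described here, were already among the calls of the medium spiny neuron list, so the lists are not separate results. Gng7, the G-protein gamma subunit of striatal neurons, read 756, 447 and 633 in the BNST and 2330, 2010 and 1650 in the NAc (-1.70 ± 0.20, adjusted p = 0.0027). Pde10a, the cyclic nucleotide phosphodiesterase of medium spiny neurons, read 1060, 335 and 560 against 3380, 2130 and 1280. The groups did not overlap, but BNST 1 came close to NAc 3, and the difference of -1.81 ± 0.40 (adjusted p = 0.046) was lost without any one of BNST 2, BNST 3, NAc 1 or NAc 2, where the adjusted p lay between 0.0861 and 0.181.

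Rgs8 and Rgs9, which speed the shut-off of G-protein signals, differed by -1.53 ± 0.21 and -1.30 ± 0.18 (adjusted p = 0.0052 and 0.0063). Rgs9 read 466, 279 and 336 in the BNST and 1010, 883 and 798 in the NAc. Rgs7bp, which anchors related RGS proteins at the membrane, differed by -1.45, the protein kinase A regulatory subunit Prkar2b by -1.37 and the soluble guanylyl cyclase subunit Gucy1a1 by -1.57. Gnal and Adcy5, the G-protein alpha subunit and the adenylyl cyclase through which D1 receptors act in the striatum, were named after their values were seen. Gnal read 1060, 430 and 585 against 1250, 1830 and 2010 (adjusted p = 0.042), and Adcy5 read 1530, 898 and 1320 against 3510, 2760 and 2390 (adjusted p = 0.016). Of the 3 kept probe sets of Gnal and the 4 of Adcy5, 1 each had the opposite sign and did not pass. Of the 11 calls, 3 held with every array left out in turn, with 8 lost without BNST 3, 7 without NAc 2, 5 without BNST 2, 3 without NAc 1 and 1 without NAc 3.

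Neuropeptide precursors split in both directions. Of 27 tested, 4 were higher and 3 lower in the BNST, 25.9% of the list against 2.24% of all genes, and the list median was 0.079. The 4 higher precursors or peptide-processing genes were Tac2, Crh, Pnoc and Ecel1. The 3 lower ones were Cartpt, Tac1 and Pdyn.

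Tac2, the precursor of neurokinin B, read 843, 753 and 1290 in the BNST and 147, 302 and 295 in the NAc. The lowest BNST array lay far above the highest NAc array, and the difference was 1.92 ± 0.27 (adjusted p = 0.0063). The dStr arrays lay near the floor at 27.5, 26.6 and 21.4. Crh, the corticotropin-releasing hormone that drives stress responses, read 648, 476 and 303 in the BNST and 60, 203 and 135 in the NAc. It differed by 1.79 ± 0.37 (adjusted p = 0.035), which did not pass without BNST 1 (0.0557), BNST 2 (0.128) or BNST 3 (0.054), and without BNST 1 and NAc 1 together the difference was 1.12.

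Pnoc, the precursor of the opioid-like peptide nociceptin, was the steadiest of the 4, with 153, 135 and 172 in the BNST and 48.6, 48.9 and 48 in the NAc (1.39 ± 0.13, adjusted p = 0.00094). Ecel1, a neuronal membrane endopeptidase placed on this list, read 559, 511 and 727 against 194, 246 and 275 (1.27 ± 0.17, adjusted p = 0.0049). For both genes the lowest BNST array was well above the highest NAc array.

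Cartpt, the precursor of CART peptides known from NAc projection neurons, read 424, 204 and 290 in the BNST and 1410, 1120 and 1060 in the NAc. The difference was -1.97 ± 0.25 (adjusted p = 0.0036), and the dStr arrays were at 20.7, 31.1 and 15, so the BNST level stood between those of the other regions. Pdyn, the dynorphin precursor, read 272, 230 and 303 against 718, 616 and 514 (-1.15 ± 0.17, adjusted p = 0.0085), and here the dStr, at 330, 336 and 249, was near the BNST. Of the 7 calls on the list, 6 held with each array left out, all but Crh.

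Several other peptides did not pass. Nts, the neurotensin precursor often used to mark the BNST, read 1180, 734 and 943 against 294, 856 and 950, with overlap, and only NAc 1 was low (adjusted p = 0.78). Without BNST 1 and NAc 1 its difference was -0.11 in place of 0.57. Sst, the somatostatin precursor, read 700, 603 and 834 against 289, 574 and 682 (adjusted p = 0.47). Cck, the cholecystokinin precursor, did not overlap, at 227, 109 and 234 against 50.9, 86.6 and 90.8, and its adjusted p was 0.17.

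**Figure D3:**
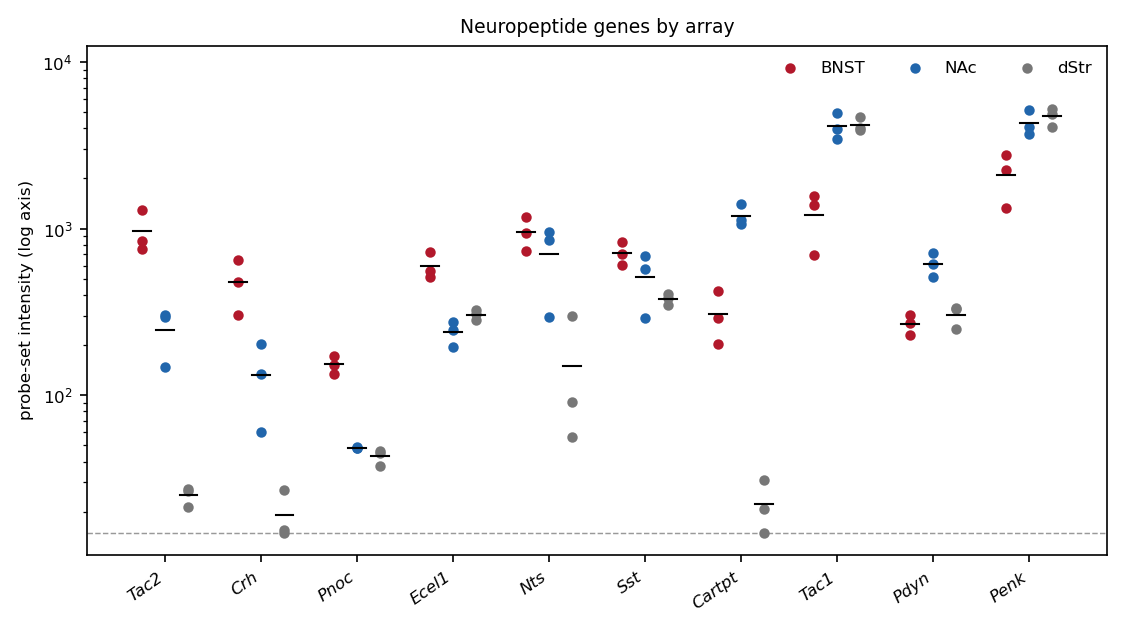
Probe-set intensity on a log axis for 10 neuropeptide genes in BNST, NAc and dStr, with 1 point per array, a black bar for the arithmetic mean and a dashed line at the floor. BNST points lie above NAc points for Tac2, Crh, Pnoc and Ecel1, below them for Cartpt, Tac1, Pdyn and Penk, and overlap them for Nts and Sst.

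Of 28 neuropeptide receptor and receptor-modifying genes tested, 1 passed (3.57%, against 2.24% of all genes), Ramp3, which was lower in the BNST, and the list median was -0.015. Ramp3, a membrane protein that sets the ligand preference of calcitonin-family receptors, read 108, 79.7 and 75.6 against 178, 300 and 261 (-1.32 ± 0.20, adjusted p = 0.0085), and without BNST 3 its adjusted p was 0.0545. Trhr, the thyrotropin-releasing hormone receptor, was steady in the BNST at 118, 145 and 109 but ran from 984 and 403 down to 126 across the NAc arrays. It did not pass (adjusted p = 0.26).

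Of 23 genes for dense-core vesicles and prohormone processing, 2 passed, both higher in the BNST, against 0.76% of all genes, and the list median was 0.072. Sytl4, or granuphilin, which tethers hormone granules at the plasma membrane, read 124, 132 and 106 in the BNST and 15, 15.8 and 18.9 in the NAc, so that the NAc arrays were at or just above the floor (2.06 ± 0.12, adjusted p = 5.6e-05). Cadps2, which primes dense-core vesicles for release, read 495, 361 and 450 against 86.6, 151 and 232 (1.47 ± 0.28, adjusted p = 0.024). It was lost without BNST 2 (0.0542), BNST 3 (0.113) or NAc 2 (0.0918). Baiap3, a relative of the vesicle priming factors, was between 1820 and 1920 on the BNST arrays but ran from 459 to 1540 in the NAc, and it did not pass (adjusted p = 0.22).

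Transcription factors that pattern the forebrain passed in both directions. Of 38 tested, 7 were higher and 6 lower in the BNST, which is 34.2% of the list against 2.24% of all genes, and the list median was 0.14. The higher ones were Otx2, Zic1, Dlx1, Sp8, Zic4, Zic5 and Sox2. The lower ones were Foxp2, Pbx3, Bcl11b, Foxp1, Meis2 and Tshz1.

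Zic1, a zinc finger factor of the septum and ventral forebrain, read 2680, 2030 and 2400 in the BNST against 184, 291 and 490 in the NAc (2.91 ± 0.28, adjusted p = 0.00094). Its relatives Zic4 and Zic5 differed by 1.48 ± 0.16 and 1.03 ± 0.14 (adjusted p = 0.0014 and 0.0049). Zic4 read 172, 205 and 204 against 62.7, 48.1 and 67.6. Sp8, a zinc finger factor of migrating interneurons, read 117, 103 and 122 against 15, 16.5 and 22.1 (1.94 ± 0.13, adjusted p = 6.7e-05), with the NAc arrays at or near the floor. Dlx1, a homeobox factor of GABAergic neurons, read 384, 221 and 228 against 15, 50.1 and 121. Its NAc arrays spread from the floor upwards, and the difference of 2.12 ± 0.43 (adjusted p = 0.033) was lost without BNST 1, BNST 2, BNST 3 or NAc 2, with adjusted p between 0.0527 and 0.125.

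The factors that were lower are known from striatal projection neurons. Foxp2, a forkhead factor, read 223, 101 and 134 in the BNST and 464, 905 and 743 in the NAc (-2.11 ± 0.28, adjusted p = 0.0048). Bcl11b, or Ctip2, required for medium spiny neuron differentiation, read 1280, 606 and 866 against 3590, 2630 and 1990 (-1.58 ± 0.28, adjusted p = 0.017). Without BNST 2, BNST 3 or NAc 2 the adjusted p of Bcl11b was 0.056, 0.0813 and 0.0735. Pbx3, a homeobox cofactor, differed by -1.86 ± 0.26, and Foxp1 by -1.46 ± 0.23. Meis2 (adjusted p = 0.049) and Tshz1 (0.048) lay at the threshold. Of the 13 calls, 7 held with every array left out in turn, with 2 lost without BNST 1, 5 without BNST 2, 6 without BNST 3, 3 without NAc 1, 6 without NAc 2 and 1 without NAc 3.

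Among genes of retinoic acid signalling a receptor stood out. Of 19 tested retinoid genes, 1 passed, against 2.24% of all genes, and the list median was -0.12. Rarb, the retinoic acid receptor beta, read 137, 67 and 89.5 in the BNST and 721, 682 and 383 in the NAc (-2.42 ± 0.27, adjusted p = 0.002). The groups were far apart, and the call held with each array left out. Rarb is a textbook target of retinoic acid through a direct repeat in its own promoter, and so is Cyp26a1, the enzyme that clears retinoic acid. Both promoters are shown because the repeat, the letters GTTCA followed after 6 unspecified bases by GTTCA, searched on both strands, occurred in the 250 bases before the start site of 7 of 11357 genes tested (0.0616%), among them these 2 of 16 retinoid genes with a promoter sequence. Cyp26a1 itself, named after its values were seen, read 78.7, 74.6 and 88.6 against 74.7, 70.9 and 82.5, with overlap. The sequences are from RefSeq, build GRCm38.p6, 5′ to 3′ on the gene's strand, at chr14:16575477-16575726 (minus strand) for Rarb and chr19:37697558-37697807 (plus strand) for Cyp26a1, with the repeat in capitals.
Rarb: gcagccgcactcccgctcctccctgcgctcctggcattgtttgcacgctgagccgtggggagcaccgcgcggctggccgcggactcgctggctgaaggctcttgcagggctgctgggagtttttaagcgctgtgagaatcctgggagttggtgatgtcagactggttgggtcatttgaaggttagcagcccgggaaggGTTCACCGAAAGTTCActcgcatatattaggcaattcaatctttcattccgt
Cyp26a1: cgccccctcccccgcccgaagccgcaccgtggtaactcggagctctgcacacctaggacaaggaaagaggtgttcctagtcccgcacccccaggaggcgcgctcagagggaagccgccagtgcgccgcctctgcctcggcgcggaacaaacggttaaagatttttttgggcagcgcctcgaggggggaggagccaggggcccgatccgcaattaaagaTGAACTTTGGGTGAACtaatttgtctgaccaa

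In Rarb the repeat runs from base -52 to -37 relative to the start site on the strand shown, and in Cyp26a1 from -32 to -17 on the other strand. A match is a description of the letters and shows neither binding nor a cause.

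Receptors for fast transmitters and monoamines passed at 7.69% for GABA-A and related subunits, 4.35% for glutamate receptors and 13% for monoamine and acetylcholine receptors, each from 1 to 3 genes, against 2.24% of all genes. Of 13 GABA-A and related subunits, 1 passed, Gabrd, the extrasynaptic delta subunit that carries tonic inhibition, which read 198, 91.6 and 154 in the BNST and 559, 549 and 376 in the NAc (-1.68 ± 0.25, adjusted p = 0.0075). A second Gabrd probe set differed by -0.09. Of 23 glutamate receptor genes, 1 passed, Grm4, a presynaptic metabotropic receptor, at 196, 182 and 204 against 331, 405 and 319 (-0.80 ± 0.13, adjusted p = 0.013). Grm4 was lost without BNST 2, BNST 3 or NAc 2, with adjusted p between 0.054 and 0.0601. Grik1, a kainate receptor subunit named after its values were seen, read 319, 261 and 248 against 34.1, 117 and 150, without overlap, and did not pass (adjusted p = 0.066).

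Of 23 monoamine and acetylcholine receptor genes, 1 was higher and 2 were lower in the BNST. The higher one was Htr7, a serotonin receptor coupled to cyclic AMP, at 204, 259 and 245 against 151, 127 and 121 (0.75 ± 0.16, adjusted p = 0.037), and the lower ones were the D1 and D2 dopamine receptors. Htr7 was lost without BNST 2, BNST 3, NAc 2 or NAc 3, with adjusted p between 0.0697 and 0.166. Drd3, which marks parts of the NAc, was not among the genes tested.

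Of 34 potassium channel genes tested, 7 were lower and 1 was higher in the BNST, against 1.48% and 0.76% of all genes. Only 8 of the 34 lay above 0, against 40.6% of all genes, and the list median was -0.48. Kcnq5, a slow muscarine-sensitive channel, differed by -1.62, and the fast and delayed channels of the Kcna family by -1.35 for Kcna4, -1.34 for Kcna5 and -1.32 for Kcna1. Kcna1 read 672, 388 and 542 against 1670, 1250 and 1120 (adjusted p = 0.011), so the highest BNST array lay well below the lowest NAc array. Kcnd2, the A-type channel of dendrites, differed by -1.05 and the silent subunit Kcns2 by -0.92. A second Kcns2 probe set differed by only -0.18. Kcnj3, a G-protein-gated inward rectifier, went the other way at 267, 219 and 284 against 69.6, 100 and 74.6 (1.49 ± 0.15, adjusted p = 0.0013). It was the 1 call of 8 that held with every array left out. The 3 other Kcnj3 probe sets ran from -0.21 to 0.52. Of the 8 calls, 5 were lost without BNST 2, 6 without BNST 3, 2 without NAc 1, 6 without NAc 2 and 2 without NAc 3.

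Among 30 sodium, calcium, HCN and TRP channel genes, 2 were higher and 2 lower, against 0.76% and 1.48% of all genes. Cacng5, an AMPA receptor auxiliary subunit of the calcium channel gamma family, read 698, 500 and 764 in the BNST and 133, 167 and 187 in the NAc (1.90 ± 0.23, adjusted p = 0.0032), while its second probe set differed by 0.02. Trpc4, a receptor-operated cation channel, read 230, 186 and 221 against 53.4, 38.6 and 55.6 (1.81 ± 0.23, adjusted p = 0.0036). Cacna2d3, a calcium channel accessory subunit, read 702, 297 and 392 against 1720, 1740 and 1410 (-1.86 ± 0.26, adjusted p = 0.0058), and Scn4b is described above. The calls of Cacng5, Trpc4 and Cacna2d3 held with each array left out.

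Of 20 interneuron and cholinergic markers tested, 1 passed and was higher in the BNST (5%, against 0.76% of all genes). This was Calb2, or calretinin, a calcium-binding protein of interneurons and of several BNST and thalamic neurons. It read 809, 1430 and 1530 in the BNST and 101, 158 and 219 in the NAc (2.86 ± 0.30, adjusted p = 0.0013). BNST 1 was the lowest BNST array and still lay well above NAc 3, the highest NAc array.

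Of 62 axon guidance and adhesion genes, 2 were higher and 4 lower, 9.68% of the list against 2.24% of all genes. Efna5, an ephrin ligand, read 486, 398 and 461 in the BNST and 227, 220 and 225 in the NAc (0.95 ± 0.12, adjusted p = 0.0036), with both regions tightly grouped. Cntnap4, a contactin-associated protein of interneuron synapses, differed by 1.07 ± 0.19 (adjusted p = 0.016). Dcc, the netrin receptor, read 121, 88.4 and 97.6 against 221, 316 and 313 (-1.33 ± 0.18, adjusted p = 0.0057), and Robo1, a Slit receptor, read 199, 128 and 141 against 383, 447 and 334 (-1.24 ± 0.18, adjusted p = 0.0064). Robo2 differed by -0.84 and the ephrin Efnb2 by -1.23. Of the further probe sets, 1 of Dcc lay at 0.16 and 1 of Robo1 at 0.064, and neither passed. With the probe set of the highest linear mean, an alternative added after seeing the data, Dcc did not pass (adjusted p = 0.139). Efna5, Dcc and Robo1 passed with each array left out, while Cntnap4, Robo2 and Efnb2 did not pass without BNST 3 or NAc 2, Robo2 and Efnb2 also without BNST 2, and Robo2 also without NAc 1.

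Imprinted genes that passed were all higher in the BNST. These were 5 of 39 tested, against 0.76% of all genes in that direction, and the list median was -0.021. Asb4, a ubiquitin ligase component of hypothalamic neurons, read 187, 226 and 215 in the BNST and 15, 34.5 and 37.1 in the NAc (2.37 ± 0.20, adjusted p = 0.00053). Magel2, a gene of the Prader-Willi region, read 520, 329 and 357 against 59, 133 and 115 (1.85 ± 0.26, adjusted p = 0.0058), and its neighbour in that region Ndn, or necdin, read 3390, 3330 and 3760 against 1770, 1900 and 2250 (0.82 ± 0.15, adjusted p = 0.019). Plagl1, a growth-restraining zinc finger factor, read 1440, 1270 and 1750 against 564, 624 and 390 (1.49 ± 0.19, adjusted p = 0.004), and Grb10, an adaptor of insulin receptor signalling, differed by 0.69. The second probe set of Plagl1 was at -0.055 and that of Grb10 at -0.41, and neither passed. Asb4, Magel2 and Plagl1 held with each array left out, whereas Ndn and Grb10 were lost without BNST 2, BNST 3 or NAc 2, with adjusted p between 0.0597 and 0.112.

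Of 28 immediate early and activity-regulated genes, 2 were lower, against 1.48% of all genes: Homer1, a postsynaptic scaffold (545, 231 and 275 against 964, 886 and 692, adjusted p = 0.033), and Ier3 (119, 131 and 115 against 276, 192 and 183, adjusted p = 0.05), and both were lost without BNST 2, BNST 3, NAc 1 or NAc 2, Ier3 also without BNST 1. Of 18 steroid hormone receptors and targets, 0 passed in limma, 3 had an unadjusted p under 0.05, and the list median was 0.0032. Esr1, the oestrogen receptor alpha of the BNST, was below the array median on all 6 arrays at 75.1, 80.8 and 70.5 against 54.8, 70.2 and 55.8. Cyp19a1 was not among the genes tested.

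The largest differences in the whole comparison, those of Tmem212 and Ccdc153, were on the list of ependymal and ciliary genes. Ependymal cells line the ventricles and carry motile cilia. Of 39 tested ependymal and ciliary genes, 14 passed and all were higher in the BNST, against 0.76% of all genes. The list median was 0.44, 33 of 39 members lay above 0, against 40.6% of all genes, and in 22 the BNST arrays lay above all NAc arrays, against 5.79% of all genes. The mean of the list on the log2 scale was 7.66, 7.5 and 7.91 on the BNST arrays and 6.86 to 6.89 on the NAc arrays.

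Tmem212, a membrane protein used as an ependymal marker, read 561, 371 and 936 in the BNST and 19.3, 15 and 15 in the NAc (4.21 ± 0.26, adjusted p = 5.6e-05). Ccdc153, a coiled-coil protein of motile cilia, read 644, 379 and 1200 against 16, 26.3 and 25.8 (4.15 ± 0.35, adjusted p = 0.00045). On both genes BNST 3 was the brightest and BNST 2 the dimmest array, and the NAc was at or near the floor. Enkur, a ciliary calcium-channel-binding protein, read 133, 112 and 197 against 15, 18.2 and 15.6, and Dynlrb2, a dynein light chain, read 215, 131 and 309 against 27.9, 40 and 38.5. Fam183b differed by 2.22 ± 0.26 and Cfap65, a flagellar protein, by 1.72 ± 0.21. The radial spoke gene Rsph1 (195, 142 and 278 against 67.8, 67 and 83.2) and the adenylate kinase Ak7 (469, 361 and 661 against 208, 152 and 146) had the same order of arrays. Foxj1, the master factor of motile cilia, and Tekt4 were not among the genes tested.

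Of the 14 calls, 8 held with each array left out, with 6 lost without NAc 2, 5 without BNST 3 and 1 without each of the other 4 arrays. None was lost without BNST 1 and NAc 1 together, which is no check on the calls. Members also lay below 0. Rfx3, a factor of the family that drives ciliary genes, named after its values were seen, read 555, 301 and 280 against 502, 772 and 448 and did not pass.

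Factors of the RFX family act on ciliary genes through a motif called the X-box, whose half-site was searched as GTTGCC on both strands in the 250 bases before the start site. It occurred in 13 of 32 tested ciliary genes with a promoter sequence (40.6%), 5 of 10 that passed and 8 of 22 that did not, against 12.6% of 11357 genes. The following 3 promoters of genes that moved together are shown for this motif, in capitals, from RefSeq, build GRCm38.p6, 5′ to 3′ on the gene's strand. Ccdc153 lies at chr9:44240427-44240676 (plus strand), Enkur at chr2:21205366-21205615 (minus strand) and Dynlrb2 at chr8:116504765-116505014 (plus strand).
Ccdc153: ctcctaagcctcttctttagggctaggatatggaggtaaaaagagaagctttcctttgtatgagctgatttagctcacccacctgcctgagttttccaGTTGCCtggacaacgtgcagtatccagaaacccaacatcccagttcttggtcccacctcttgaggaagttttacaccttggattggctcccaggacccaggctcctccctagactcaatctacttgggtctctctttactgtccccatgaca
Enkur: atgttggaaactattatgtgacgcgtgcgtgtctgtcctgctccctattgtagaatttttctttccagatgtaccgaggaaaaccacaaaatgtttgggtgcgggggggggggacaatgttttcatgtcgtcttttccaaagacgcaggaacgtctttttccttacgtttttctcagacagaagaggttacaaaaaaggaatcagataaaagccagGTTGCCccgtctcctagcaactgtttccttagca
Dynlrb2: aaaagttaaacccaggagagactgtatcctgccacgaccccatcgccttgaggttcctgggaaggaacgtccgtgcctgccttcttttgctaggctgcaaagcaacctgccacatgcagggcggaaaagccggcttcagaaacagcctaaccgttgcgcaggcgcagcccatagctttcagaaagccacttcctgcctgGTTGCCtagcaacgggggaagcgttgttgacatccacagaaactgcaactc

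The half-site starts at base -152 in Ccdc153, -34 in Enkur and -51 in Dynlrb2, counted from the start site. Tmem212, the gene with the largest difference, had no match in this window, which says only that these letters were not found there.

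Otx2, a homeobox factor known from choroid plexus epithelium, read 372, 209 and 250 in the BNST, and all 3 NAc arrays and all 3 dStr arrays stood at the floor. Computed from the intensities, its level in the BNST was at least 18.0-fold higher (adjusted p = 5.6e-05). It was the 1 gene of 12 tested choroid plexus genes that passed (8.33%), against 0.76% of all genes that passed as higher in the BNST. Ttr, transthyretin, a major secreted protein of the choroid plexus, has 4 probe sets that disagree. The set that represented the gene read 621, 277 and 340 against 292, 276 and 304, a difference of 0.40 that did not pass. The 3 other sets read 2900, 204 and 634 against 43.2, 40.1 and 40.7, 1580, 96.1 and 308 against 15, 33.9 and 32.1, and 919, 127 and 244 against 113, 90 and 78.4. BNST 1 was the brightest array on all 4. With the probe set of the highest linear mean in place of the highest log2 mean, an alternative added after seeing the data, Ttr differed by 3.70 and passed (adjusted p = 0.0223). Folr1, Kcnj13, Clic6 and Slc4a5, other choroid plexus markers, lay between -0.25 and 0.18 without passing, and Kl was not among the genes tested.

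Astrocyte genes lay above 0 in 22 of 24 tested, against 40.6% of all genes, with a list median of 0.43. Of the 24, 3 passed, all higher in the BNST, against 0.76% of all genes. Gfap, the intermediate filament of fibrous astrocytes and subventricular cells, read 103, 175 and 206 against 38.2, 37.8 and 30.8 (1.74 ± 0.23, adjusted p = 0.004), and BNST 1 was the lowest BNST array. Mlc1, a membrane protein of astrocyte end-feet, read 992, 839 and 1230 against 490, 395 and 603 (1.02 ± 0.18, adjusted p = 0.019), and Sox9, a glial transcription factor, read 246, 214 and 258 against 158, 147 and 145 (0.62 ± 0.12, adjusted p = 0.03). Aqp4, Slc1a3 and Gja1 differed by 0.54 to 0.55 without passing. The markers Aldh1l1 and Slc1a2 differed by 0.36 and 0.11, also without passing, and 3 of the 4 kept Slc1a2 probe sets had the opposite sign. Mlc1 was lost without BNST 3 or NAc 2, and Sox9 without BNST 2, BNST 3, NAc 2 or NAc 3. The part of ependymal, choroid plexus and astrocyte RNA in the other differences was not tested.

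**Figure D4:**
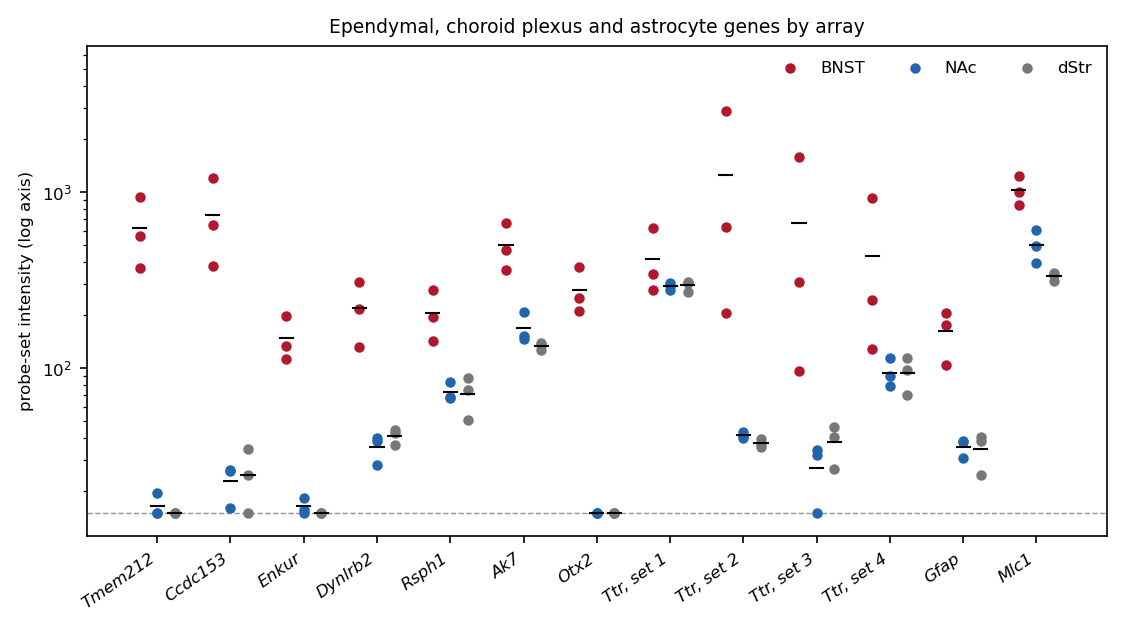
Probe-set intensity on a log axis for ependymal genes (Tmem212 to Ak7), choroid plexus genes (Otx2 and the 4 Ttr probe sets) and astrocyte genes (Gfap, Mlc1), with 1 point per array, a black bar for the arithmetic mean and a dashed line at the floor. For Tmem212, Enkur and Otx2 the NAc and dStr points lie on or near the floor, and for Ttr 1 BNST array stands above the other 2.

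Of 23 oligodendrocyte genes, 16 microglial genes and 19 endothelial and pericyte genes, 0 passed in limma. An unadjusted p under 0.05 was found for 2, 5 and 1 of them, and for 1796 of all 14208 genes. All 16 microglial genes lay below 0, with a list median of -0.31, whereas 40.6% of all genes lay above 0. After quantile normalisation C1qb was at 0.084 and the rest of this list still lay below 0. The oligodendrocyte list was lowest on NAc 1, with a mean of 8.74 against 9.27 and 9.48 on NAc 2 and NAc 3 and 9.15 to 9.31 in the BNST. Mbp, the myelin basic protein, read 6730, 7290 and 6790 against 6420, 6690 and 6880.

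Of 18 marker genes of neighbouring regions, the thalamus, septum and hypothalamus, 5 passed and all were higher in the BNST, against 0.76% of all genes: Calb2, Slc17a6, Trpc4, Prkcd and Zic5, and all 5 held with each array left out. Slc17a6, the vesicular glutamate transporter of subcortical excitatory neurons, read 144, 177 and 196 in the BNST and 21.3, 36.2 and 59.8 in the NAc (1.82 ± 0.25, adjusted p = 0.0052). Prkcd, a protein kinase C isoform of thalamic and extended amygdala neurons, read 442, 444 and 546 against 212, 188 and 196 (1.20 ± 0.13, adjusted p = 0.0018). The thalamic factor Tcf7l2 read 1370, 1740 and 1030 against 1310, 2140 and 1400, and the hypothalamic factors Otp and Lhx9 differed by -0.21 and 0.077. Gbx2 and Sim1 were not among the genes tested.

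For cortex and olfactory areas 12 genes were tested, and 1 was higher and 1 lower in the BNST, against 0.76% and 1.48% of all genes. Nrn1, a membrane-anchored growth factor, was higher (183, 388 and 314 against 80.7, 73.6 and 83.9, adjusted p = 0.0078). Lamp5, a lysosome-associated protein of some neurons, was lower (adjusted p = 0.041, lost without any array but BNST 1). The cortical excitatory markers Slc17a7, Neurod6, Tbr1 and Emx1 were not among the genes tested. Among 67 respiratory chain genes and 39 cytosolic ribosomal protein genes, 0 passed in limma, 1 and 0 had an unadjusted p under 0.05, and the list medians were -0.10 and -0.056.

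**Figure D5:**
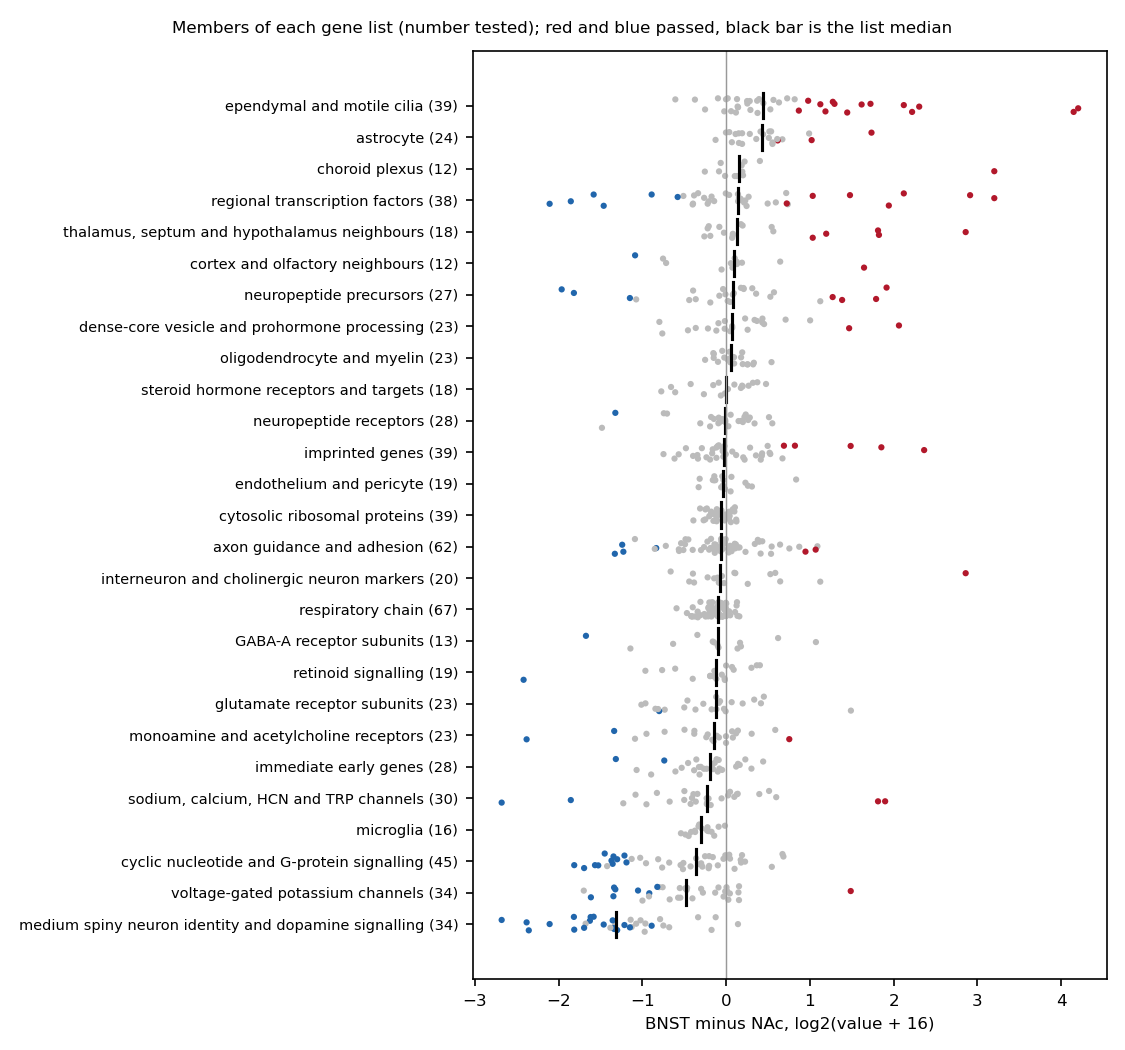
Difference between BNST and NAc for the tested members of 27 gene lists on the log2(value + 16) scale, with 1 point per gene, the number tested in brackets and a black bar for the list median. Red points passed and were higher in the BNST, blue points passed and were lower. The medium spiny neuron list has its median at -1.32 and the ependymal list at 0.44, and the ribosomal and respiratory chain lists lie around 0 with no gene that passed.

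Most of the genes that passed, 228 of 318, were on none of the lists. Among the 20 largest in each direction, Cd24a, a surface glycoprotein of immature neurons and ependymal cells, read 530, 402 and 716 in the BNST and 98, 128 and 140 in the NAc (2.01 ± 0.20, adjusted p = 0.0011), and Lbhd2 differed by 2.09 ± 0.29. On the lower side, Pcp4l1, a small calmodulin-binding protein, read 330, 170 and 240 against 1220, 1010 and 1260 (-2.21 ± 0.20, adjusted p = 0.00094), and the kinase Dclk3 read 223, 119 and 162 against 632, 926 and 823 (-2.16 ± 0.21, adjusted p = 0.0011). In both genes the groups lay far apart, and the calls held with each array left out.

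Prkch, a protein kinase C isoform, read 294, 102 and 170 against 838, 1050 and 807 (-2.26 ± 0.29), and Serpina9, a protease inhibitor, read 28.5, 15 and 15 against 264, 160 and 104 (-2.37 ± 0.27), with BNST 2 and BNST 3 at the floor. Runx1t1, a transcriptional corepressor, differed by -1.94 ± 0.24 and Strip2 by -2.01 ± 0.30. Lpl, lipoprotein lipase, read 132, 52.9 and 138 against 1190, 546 and 267 (-2.31 ± 0.47, adjusted p = 0.033) and was lost without BNST 2 (0.128), BNST 3 (0.089) or NAc 2 (0.124). Nell2, Tesc, Chst15, Car12 and Pou3f1 completed the lower set, between -2.17 and -1.88, and each was lost without BNST 3, where the adjusted p lay between 0.0543 and 0.106. Without NAc 2 all but Tesc were lost, and without BNST 2 Chst15 and Car12 were. A further probe set of Car12 lay at -0.0065, and the second sets of Nell2 and Lpl lay at -0.74 and -0.73. The second sets of Tesc, Chst15 and Pou3f1 lay between -1.92 and -1.64.

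Probe sets with no symbol or several symbols were tested apart, and 44 of 5470 passed (0.804%), 13 higher and 31 lower in the BNST. The largest differences were 2.33, for a probe set with several symbols, and -2.48, for a probe set with none.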

How the data were processed

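The authors deposited 1 table of linear probe-set intensities for 45037 probe sets on 9 arrays, with low signals set to 15. The sources used here do not name the software or the scaling behind these intensity values. Array medians differed by at most 0.12 (log2), so the deposited scaling was kept, and the number of arrays limits the precision. In GEO's platform annotation, which can be old, 34945 probe sets carried a single gene symbol, 932 carried several and 9160 carried none. Probe sets entered the analysis when 3 or more of the 9 arrays exceeded their own 40th percentile. Each gene was represented by the probe set whose mean log2(value + 16) was highest, which gave 14208 genes. Of these, 5897 had several kept probe sets, and of the 318 genes that passed, 32 had a probe set of the opposite sign, none of which passed.

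Regions were compared with limma 3.58.1 in R 4.3.3, with 1 linear model over the 9 arrays, a mean per region, 6 residual degrees of freedom and empirical Bayes moderation. Tests were 2-sided with Benjamini-Hochberg adjustment over all genes and a threshold of 0.05. The text names the 20 genes of each direction with the largest difference among those that passed without overlap and exceeded the median intensity in the higher region, up to 6 passing members per list and direction, and fixed markers. The members, the 27 gene lists (937 symbols, 719 tested) and the tests were chosen with earlier results of these data known. On simulated data of 14208 genes the procedure recovered 56% of genes changed by 1 on the log2 scale and 97% of those changed by 2, with 7 false calls. The simulated noise was normal and independent, with the same spread for a gene in all regions. Only genes above the median mean were changed. Deviations shared across an array were not simulated, so these rates do not carry over to the real arrays. Alternatives were other normalisations, filters, pseudocounts, probe-set rules, priors, a replicate block, the 6 arrays alone, and leaving out arrays. Promoter sequences came from RefSeq (GRCm38.p6) for 11357 genes, with chromosome 18 left out.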

Additional observations from a re-analysis of the deposited data

How the results depend on the processing

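The number of genes that passed was 318 and lay between 220 and 435 under other normalisations, filters, ways of choosing a gene's probe set, pseudocounts and priors. It was 71 with the 6 arrays fitted alone (43 higher, 28 lower in the BNST) and 2203 without BNST 1 and NAc 1 (349 and 1854). Leaving out 1 array gave 101 to 617 genes, 53 to 150 higher and 48 to 488 lower. The higher count was 200 after quantile normalisation and 173 with every probe set tested by itself, and the lower count was 115 without a filter. With a replicate block 196 genes passed, 69 higher and 127 lower. The labels do not say that a number marks a shared source, and same-numbered BNST and NAc arrays deviated from their region means with correlations of -0.514, -0.221 and -0.248, so the numbers were not taken to pair the arrays.

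Of the 318 genes, 3 changed sign with unsuffixed probe sets alone and 0 under the other alternatives applied to genes. Among named genes, the sign turned for Plagl1 (-0.055 with unsuffixed probe sets) and for genes that had not passed. Calcr was at 0.024 with a pseudocount of 1. Without BNST 1 and NAc 1, Cldn11 was at -0.13, Cldn5 at 0.046, Clic6 at 0.078, Mag at -0.23, Mog at -0.56 and Nts at -0.11. After quantile normalisation Cldn5 was at 0.028, Clic6 at 0.042 and Flt1 at 0.065. With probe sets of a gene averaged, Otp was at 0.020 and Slc1a2 at -0.067, and with unsuffixed sets Tcf7l2 was at 0.067. Leaving out 1 array moved C1qa from -0.90 to 0.072, Calcr from -0.995 to 0.38, Cldn11 from -0.23 to 0.26, Cldn5 from -0.13 to 0.0025, Clic6 from -0.17 to 0.066, Dlk1 from -0.66 to 0.11, Flt1 from -0.10 to 0.0025, Folr1 from -0.017 to 0.23, Lhx9 from -0.029 to 0.18, Mag from -0.29 to 0.42 and Mog from -0.40 to 0.37. The causes were not tested.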

Other observations

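Other genes that passed were on none of the lists, and those named here were chosen after their values were seen. The exceptions are Wfs1, Dlk1 and Calcr, given last, which belong to the fixed markers. Dlk1 and Calcr are on lists and did not pass. Of the genes chosen by their values, several belong to motile cilia. Fhad1 read 81.5, 79.4 and 84.1 in the BNST and 15, 15 and 15.7 in the NAc (1.65 ± 0.11, adjusted p = 6.7e-05), so its BNST arrays were alike where those of Tmem212 spread. Cfap54, a flagellar protein, read 174, 128 and 231 against 47.9, 75.7 and 62.2 (1.30 ± 0.20, adjusted p = 0.0093). The radial spoke gene Lrrc23 differed by 0.71 and the axonemal dynein Dnah1 by 0.65, and both were lost when single arrays were left out, with an adjusted p of up to 0.12 and 0.179.

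Outside cilia, the endothelin receptor Ednrb read 1070, 1170 and 1320 against 438, 464 and 492 (1.32 ± 0.13, adjusted p = 0.0011), and the postsynaptic scaffold Homer2 read 530, 456 and 600 against 170, 209 and 171 (1.45 ± 0.14, adjusted p = 0.0011), the reverse of Homer1, which was lower in the BNST. Both held with each array left out. Igsf1, an immunoglobulin superfamily membrane protein, differed by 1.54.

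On the lower side, the signalling scaffold Akap5 read 523, 339 and 420 against 1310, 1450 and 1090 (-1.56 ± 0.17, adjusted p = 0.002) and held with each array left out. The calcium sensor Hpca, or hippocalcin, read 920, 446 and 863 against 3500, 2060 and 1800 (-1.71, adjusted p = 0.016). Crym, a thyroid hormone-binding protein, read 1610, 683 and 1590 against 4160, 4330 and 3580 (-1.72, adjusted p = 0.013), and the peptidase Mme, or neprilysin, differed by -1.68 (adjusted p = 0.02). The last 3 reached an adjusted p of 0.0593, 0.0705 and 0.0955 with 1 array left out.

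Wfs1, a membrane protein of the endoplasmic reticulum and a marker of the NAc, read 1790, 1070 and 1410 in the BNST and 2730, 2870 and 2330 in the NAc (-0.91, adjusted p = 0.039, up to 0.159 with 1 array left out), and 527, 632 and 481 in the dStr. The markers Dlk1 and Calcr were near the floor in the dStr and overlapped between the limbic regions, with Dlk1 at 696, 330 and 303 against 242, 728 and 597.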
